A study of Mus musculus and Rattus norvegicus with 32 samples.

Results

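The genes described here carry fatty acids into cardiomyocytes and through mitochondrial beta-oxidation. They are 40 genes listed by symbol and read from 4 tables of estimated counts per gene. All 40 were found in each of the 3 mouse heart tables, among 55487 genes, and 38 in the table of rat cells, among 32883 genes. Cd36 and Eci2 were not analysed in the rat cells. The list was set by function, but with earlier results of these data known, so shares of all genes given beside its counts are a description. Its members were ordered by step: uptake and binding (6 genes), activation (4), the carnitine shuttle (4), malonyl-CoA control (2), acyl-CoA dehydrogenases (6), the later steps of the spiral (7), auxiliary enzymes for unsaturated fatty acids (3), electron transfer flavoprotein (3), thioesterases (3) and lipid droplet proteins (2).

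The study asked what METTL5, the methyltransferase that places N6-methyladenosine on 18S rRNA, does in the heart. RNA was sequenced from 4 libraries in each of 8 groups. Hearts labelled METTL5-KO, from mice lacking the gene in the whole body, were set against control hearts at 1 month of age. Hearts labelled METTL5-cKO were set against control hearts at 3 months of age, and likewise 4 weeks after transverse aortic constriction (TAC), an operation that loads the left ventricle with pressure. The mice were C57BL/6, and the TAC hearts also carry an age of 3 months in the labels. In the METTL5-cKO mice, αMHC-Cre (Myh6-Cre) removes the floxed exons from 2 to 4 of METTL5 in cardiomyocytes, so the other cells of the heart keep the gene, and controls were littermates whose Cre and flox alleles are not given. The genotype field of these hearts reads Mettl5-KO while their titles read Mettl5-cKO. Neonatal rat ventricular cardiomyocytes (NRVMs, Sprague Dawley, postnatal day 2) received an adenovirus with METTL5 (AdMETTL5) or with GFP (AdGFP), and both groups were treated with 20 μM phenylephrine (PE), an adrenergic agonist that drives hypertrophy, for 24 h. The NRVMs had been pre-plated to remove fibroblasts, and the virus carried a human METTL5 coding sequence.

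The heart draws most of its energy from fatty acids. Lipoprotein lipase frees them from circulating lipid, membrane transporters and binding proteins bring them into the cell, acyl-CoA synthetases activate them, and the carnitine shuttle carries them across the mitochondrial membranes. Inside, each turn of beta-oxidation takes an acyl-CoA through a dehydrogenase, a hydratase, a second dehydrogenase and a thiolase, and the electrons of the first step leave through electron transfer flavoprotein. This program is known to fall in failing and overloaded hearts.

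Total counts ran from 14324700 to 21804907 a library. In NRVMs they were split by group, at 17344430 to 18085339 with AdGFP and 14324700 to 14642431 with AdMETTL5. Counts of the targeted gene, Mettl5, did not separate the heart groups: it had 5.12 ± 0.66 CPM (counts scaled to a common library size) in controls and 5.97 ± 0.81 in hearts labelled METTL5-KO at 1 month, 7.36 ± 0.55 and 6.51 ± 0.73 at 3 months, and 6.75 ± 0.75 and 6.59 ± 0.76 after TAC (SD, n = 4). Counts assigned to rat Mettl5 were 17.0 ± 0.77 CPM with AdGFP and 21.2 ± 1.76 CPM with AdMETTL5 (edgeR adjusted p = 0.00295). The virus carried a human sequence, and how far its reads count toward the rat gene was not tested. These values thus do not measure the overexpression. The tables count reads over the whole gene, so they do not show the deleted exons apart, and every direction given below for the mouse hearts rests on the labels. The 4 TAC libraries labelled METTL5-cKO were uneven, and library 4 stood nearest to the controls in the summed CPM of the members, of the cardiomyocyte markers and of the fibroblast markers.

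Sequence is shown from 3 windows, at the starts of 4 members. Hadha and Hadhb, the α and β subunits of the mitochondrial trifunctional protein, lie head to head on chromosome 5, with Hadha at 30118304 to 30155162 on the minus strand and Hadhb at 30155248 to 30184593 on the plus strand (GRCm38, GENCODE M21). Only 85 bases separate them. This shared stretch is shown because both subunits of one enzyme are read from it in opposite directions, and its 9 CpG dinucleotides are in capitals, in a sequence with 69.4% G and C. The other sequences are the 250 bases before the RefSeq start of Acadvl, which was lower in TAC hearts and in NRVMs, and of Acadm, which was lower in NRVMs. Their capitals mark the motif AGGTCA, read on the other strand as TGACCT, a sequence that PPAR and related nuclear receptors are known to bind. The sequences come from RefSeq on GRCm38.p6, and no annotated exon lies in the 3 windows.
Hadha–Hadhb, chr5:30155163-30155247, plus strand: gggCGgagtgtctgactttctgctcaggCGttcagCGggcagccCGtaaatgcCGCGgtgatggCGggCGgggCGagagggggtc
Acadvl, chr11:70015429-70015678, minus strand: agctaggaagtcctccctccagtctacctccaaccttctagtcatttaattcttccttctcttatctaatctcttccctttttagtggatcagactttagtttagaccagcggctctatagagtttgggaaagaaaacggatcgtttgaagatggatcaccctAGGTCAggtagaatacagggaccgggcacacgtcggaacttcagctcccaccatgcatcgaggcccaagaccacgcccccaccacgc
Acadm, chr3:153944644-153944893, minus strand: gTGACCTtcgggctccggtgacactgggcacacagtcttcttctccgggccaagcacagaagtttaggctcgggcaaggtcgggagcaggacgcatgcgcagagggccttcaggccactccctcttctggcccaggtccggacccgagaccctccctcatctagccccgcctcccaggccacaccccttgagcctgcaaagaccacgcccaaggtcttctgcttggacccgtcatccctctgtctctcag

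Promoters of 32 members were matched in RefSeq, with 36 starts, each of 250 bases before and 50 after the start. None was matched for Lpl, Fabp4, Fabp5, Cpt1b, Crat, Acaa2, Decr1 and Acot13. AGGTCA was found on either strand in 8 of the 36 promoters (22.2%), against 16.3% of all 32851 promoters of that length. Counted by gene, it was in 7 of 32 members (21.9%), near the 18.1% of all 27025 genes. The genes were Cd36, Cpt1a, Acacb, Acadvl, Acadm and Echs1 with 1 promoter each, and Plin5 with both. The motif began 87 bases before the start in Acadvl and 249 bases before it in Acadm. Cpt1a also has it and was higher in NRVMs (log2 fold change 0.32). Etfb, Cpt2, Acot2 and Eci1, lower in TAC hearts and in NRVMs, had 0 copies in these promoters. A link between the motif and the changes was not tested. The direct repeat AGGTCANAGGTCA, the PPAR element, was in 0 of the 36 and in 0.0396% of all promoters, and the estrogen-related receptor element TCAAGGTCA, which contains AGGTCA, was in 0 of the 36 and in 0.423% of all. Only exact matches were searched. Both elements are so rare among all promoters that 0 of 36 does not set the members apart, nor show that they lack such elements.

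Levels were compared between genes as CPM per kilobase of exon in the 3-month control hearts, the union of each gene's annotated exons being its length. That length ran from 744 to 10483 bases, and the order of the genes depends on it. It was 823 bases for Fabp3 and 10478 for Lpl, which before this division had 1398 ± 52.8 and 3625 ± 317 CPM. By this measure Fabp3, the heart-type fatty acid binding protein, stood alone at the top with 1699 ± 64.2 CPM per kb (SD, n = 4). Then came Lpl, lipoprotein lipase, at 346 ± 30.3, Etfb, the β subunit of electron transfer flavoprotein, at 334 ± 58.8, Acadl, long-chain acyl-CoA dehydrogenase, at 314 ± 13.6, Acaa2, the mitochondrial thiolase, at 281 ± 23.9, and Acot13 at 262 ± 46.4. Cd36, the main fatty acid transporter of the cell membrane, had 249 ± 9.47 and Acadvl 222 ± 7.34 CPM per kb. Among these neighbours, Lpl and Etfb, Etfb and Acadl, Acaa2 and Acot13, and Acot13 and Cd36 each differed by less than the larger of their SDs.

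**Figure D1:**
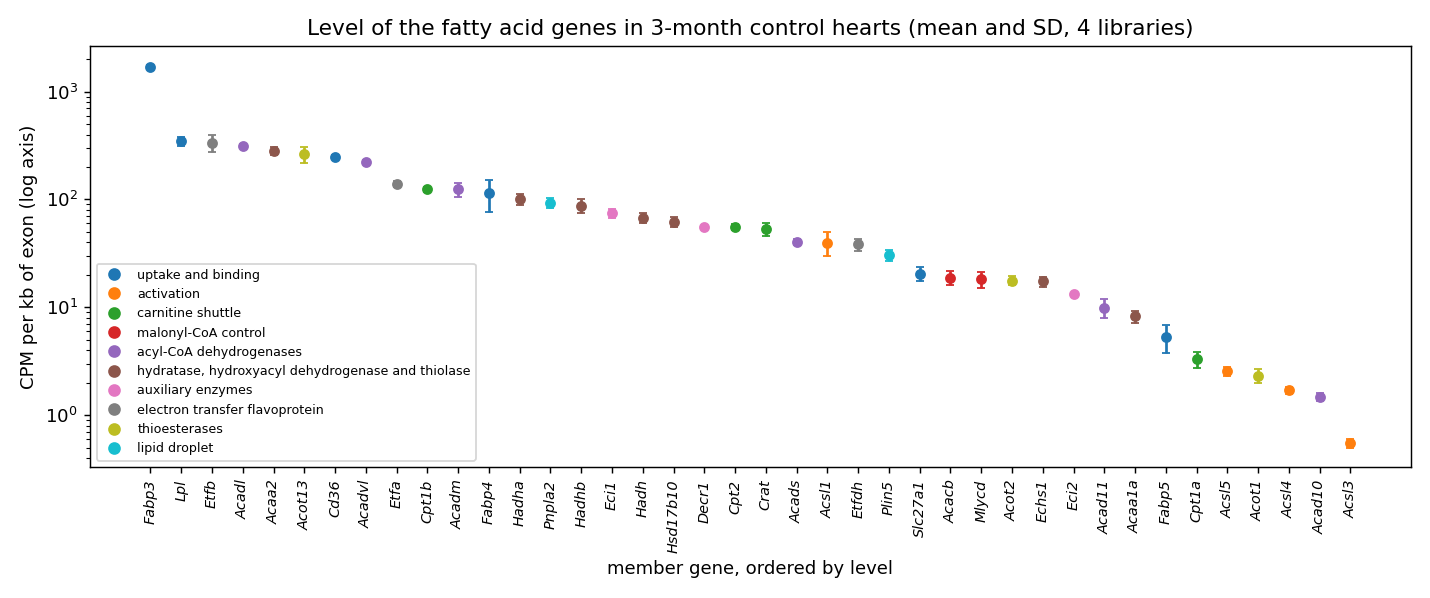
Level of each member in the 3-month control hearts, in CPM per kb of exon on a log axis. Points are means and bars SDs of 4 libraries, coloured by step. The levels fall from 1699 for Fabp3 to 0.551 for Acsl3, and the 4 activating enzymes spread from 39.9 to 0.551.

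Isoforms of one step differed widely in level. Among the acyl-CoA synthetases, Acsl1 had 39.9 ± 9.66 CPM per kb, while Acsl5 had 2.55 ± 0.24, Acsl4 1.69 ± 0.12 and Acsl3, the lowest member, 0.551 ± 0.053. Cpt1b, the muscle form of the outer membrane carnitine palmitoyltransferase, had 124 ± 7.53, against 3.28 ± 0.56 for Cpt1a, the liver form. Acad10 and Acad11, dehydrogenases outside the main spiral, had 1.47 ± 0.12 and 9.88 ± 2.00 CPM per kb, and 40.4 ± 2.99 was measured for Acads, the short-chain enzyme. Exons of 14 members overlap those of other genes. The overlap covers 81.4% of the exon length of Cpt1b (with Gm44502, same strand), 58.2% of Etfb (with Gm45233 and Mir7051, same strand) and 42.9% of Acadvl (with Dvl2, other strand), and the strand setting of the counting is not given, so reads of these genes cannot be told apart from those of their partners. Of the 50-base windows in its transcripts, Acot2 shares 24.5% with its neighbour Acot1, which makes the split of counts between this pair uncertain. Fabp3 shares 29.2% of its windows with Fabp3-ps1.

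At 1 month, hearts labelled METTL5-KO and control hearts gave no member a difference that passed. In quasi-likelihood fits by edgeR, p-values were adjusted after Benjamini and Hochberg over all 16329 genes tested and read against a threshold of 0.05, and 0 of 40 members were higher and 0 lower, where 0% of all genes were higher and 0.00612% lower. At an unadjusted p under 0.05, 0 members were higher and 1 lower (Acot2), where 2.12% of all genes were higher and 2.46% lower, so this count is at the background. DESeq2 called 0 members in each direction, and 0.0172% of all genes higher and 0.0241% lower. The log2 fold changes (METTL5-KO over control) were above 0 in 17 members and below 0 in 23, with a median of -0.04 beside -0.01 over all genes. The summed level of the members was 8049 to 10812 CPM in controls and 7365 to 9001 CPM in METTL5-KO hearts, which overlap. The widest fold change was that of Acot1, a cytosolic acyl-CoA thioesterase, at -0.78 ± 0.39 (SE), and it did not pass (edgeR adjusted p = 0.973). All 6 uptake and binding genes had fold changes below 0, from -0.44 for Slc27a1 to -0.04 for Fabp3. Control library 1 had 6227 CPM summed over these genes, and the other controls 3691 to 4617 CPM. Leaving out 1 library took the fold change of Cd36 up to 0.03, that of Fabp3 to 0.09 and that of Slc27a1 to -0.05. Cd36 had 554 ± 150.0 CPM in controls and 506 ± 35.0 CPM in METTL5-KO hearts (SD, n = 4), a difference smaller than the spread of the controls.

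At 3 months, without surgery, no member passed either. EdgeR called 0 of 40 members higher and 0 lower, where 0.0488% of 16391 tested genes passed as higher and 0.0244% as lower, with 0 members higher and 2 lower (Decr1 and Acadvl) at an unadjusted p under 0.05. At that p 3.62% of all genes were higher and 3.43% lower, which puts the members near the background. DESeq2 called 0 members higher and 1 lower (Decr1), and 0.327% of all genes higher and 0.271% lower. The fold changes (METTL5-cKO over control) were above 0 in 4 members and below 0 in 36, with a median of -0.13 beside 0.0007 over all genes. Without METTL5-cKO library 4 the median was -0.06, with 12 above 0 and 28 below, and scaled by library size alone 12 were above 0 and 28 below. Summed over the members, controls had 14004 to 15219 CPM and METTL5-cKO hearts 12548 to 13769 CPM, which do not overlap. This separation rests on the TMM scaling of edgeR, with factors of 0.939 to 1.01 in controls and 0.977 to 1.04 in METTL5-cKO hearts. Scaled by library size alone, the sums of the groups overlap. Beside the members, the 8 cardiomyocyte markers summed to 43113 to 45539 CPM in controls and 37952 to 42289 CPM in METTL5-cKO hearts. The 6 endothelial markers summed to 513 to 803 CPM and 406 to 621 CPM, and the 7 fibroblast markers to 347 to 459 CPM and 451 to 577 CPM. For the 6 macrophage markers the sums were 89.5 to 112.0 CPM and 113.0 to 151.7 CPM, and for the 5 smooth muscle markers 207 to 253 CPM and 178 to 234 CPM. By edgeR 0 of these markers passed. The part of cell composition in this was not tested, and in bulk tissue fewer cardiomyocytes and less RNA per cardiomyocyte cannot be told apart.

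Decr1, the reductase that opens polyunsaturated fatty acids to beta-oxidation, was the member with the smallest p at 3 months. It lies on chromosome 4 at 15917240 to 15945507, minus strand (GRCm38). The control libraries read 215, 216, 217 and 219 CPM and the METTL5-cKO libraries 189, 190.1, 182 and 181 CPM. The groups did not overlap. The log2 fold change was -0.22 ± 0.07 (SE), with edgeR adjusted p = 0.475 and DESeq2 adjusted p = 0.00494. An exact two-sided permutation test gave p = 0.0286, the smallest that the 70 labellings of 4 against 4 libraries allow. Acadvl, which starts the spiral on very long chains, also did not overlap, with 597 ± 19.7 CPM in controls and 523 ± 27.2 in METTL5-cKO hearts (log2 fold change -0.19 ± 0.08, edgeR adjusted p = 0.642). In all, 3 members had every METTL5-cKO library below every control (Decr1, Acadvl and Cd36) and 1 had every library above (Acad10, log2 fold change 0.16 ± 0.09), where this held for 2.04% and 2.19% of all genes.

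In every step but that of Decr1, the most counted gene overlapped between the 3-month groups. Lpl read 3296, 3944, 3416 and 3844 CPM in controls and 3075, 3241, 3680 and 3577 in METTL5-cKO hearts. Acsl1 read 534, 342, 324 and 471 CPM against 486, 403, 330.1 and 266. Cpt1b, which commits fatty acids to the mitochondrion, read 401, 392, 442 and 437 CPM against 413, 438, 424 and 355. Each of these 3 genes had libraries of one group inside the range of the other. Acacb, which makes the malonyl-CoA that holds Cpt1b in check, read 186, 142, 190.3 and 206 CPM against 181, 164, 184 and 135. Acadl read 589, 647, 634 and 645 CPM against 534, 592, 577 and 540, with 1 METTL5-cKO library above the lowest control. Hadha read 979.7, 786, 809 and 951 CPM against 970.2, 849, 877 and 692. Etfb, with 306, 433, 455 and 359.7 CPM in controls and 286, 313, 325 and 383 in METTL5-cKO hearts, overlapped as well. The thioesterase Acot13 read 157, 238, 205 and 181 CPM against 160.3, 180.4, 172 and 217, and Pnpla2, the triglyceride lipase of the lipid droplet, 247, 279, 276 and 319 CPM against 235, 299.9, 287 and 234.

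**Figure D2:**
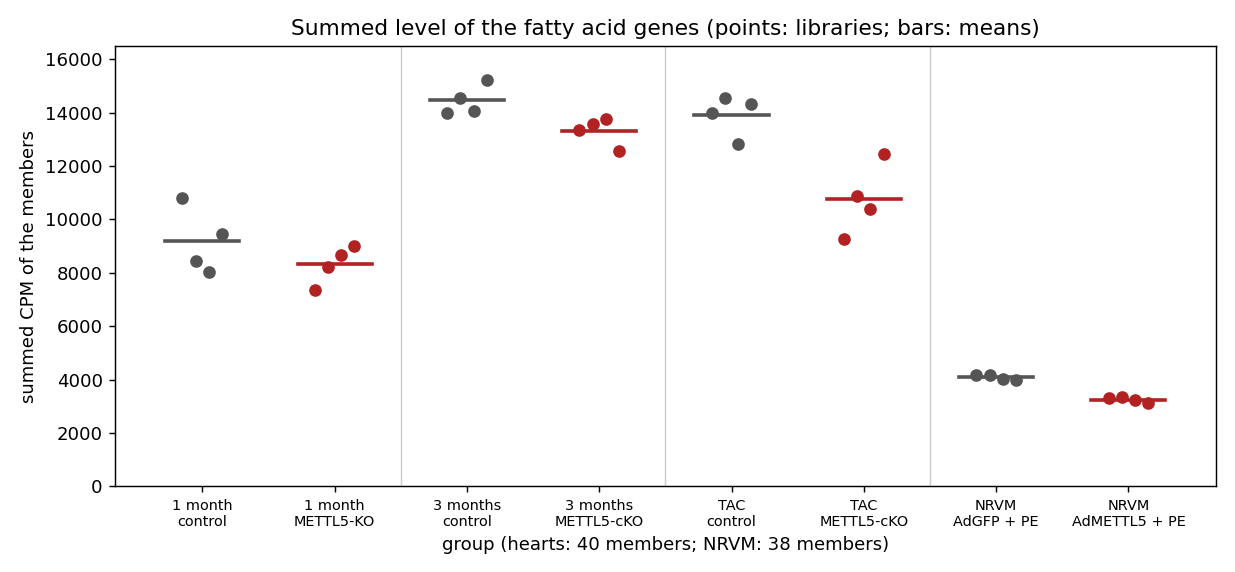
Summed CPM of the members in every library, 40 members in hearts and 38 in NRVMs, with a bar at each group's mean. The groups overlap at 1 month, and the test group lies below its controls at 3 months, after TAC (9271 to 12465 against 12819 to 14555) and in NRVMs (3138 to 3338 against 3981 to 4186). Each table was normalized by itself with TMM factors, and scaled by library size alone the groups at 3 months overlap.

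After TAC, 13 of the 40 members were lower in hearts labelled METTL5-cKO than in control hearts and 0 were higher. Over all 16340 genes tested, 6.1% were lower and 6.57% higher. The 13 came from 7 of the 10 steps: Fabp4 and Slc27a1 in uptake and binding, Cpt1b and Cpt2 in the carnitine shuttle, Acadvl among the dehydrogenases, Hadh, Acaa2 and Acaa1a in the later steps, Eci1 and Decr1 among the auxiliary enzymes, Etfb, and the thioesterases Acot1 and Acot2. No activation, malonyl-CoA or lipid droplet gene passed. Beyond the threshold of 0.05, 0 members reached the absolute log2 fold change over 1 that the study also asked for, where 0.894% of all genes did so lower and 2.01% higher. At an unadjusted p under 0.05, 0 members were higher and 29 lower, where 15.2% of all genes were higher and 15.8% lower. DESeq2 called 0 members higher and 24 lower, and 9.09% of all genes higher and 7.85% lower.

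The members summed to 13994.5, 14555, 12819 and 14313 CPM in the control TAC libraries and to 9271, 10871.5, 10407 and 12465 in those labelled METTL5-cKO. All 4 METTL5-cKO libraries lay below every control, library 4 most narrowly. For each of the 13 genes the groups did not overlap, and an exact two-sided permutation test gave p = 0.0286. The log2 fold changes of single members ran from -0.94 to 0.20, with 38 below 0 and 2 above, and a median of -0.39 beside -0.0035 over all genes. In 17 members every METTL5-cKO library was below every control, and in 0 every library was above, where this held for 9.16% of all genes in the lower direction and for 9.41% in the higher. Scaling by library size alone moved the median of all genes to 0.14 and that of the members to -0.25. With it 10 members were lower, where 3.21% of all genes were lower and 12.6% higher.

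Decr1 had the smallest adjusted p after TAC. Control libraries read 191, 206, 178 and 218 CPM and METTL5-cKO libraries 93.0, 118, 126 and 142 CPM. The highest METTL5-cKO library stayed below the lowest control, and the log2 fold change was -0.72 ± 0.13 (SE; edgeR adjusted p = 0.0127). Of the 13 genes, Decr1 was also the only one whose adjusted p stayed under 0.05 when any single library was left out, at 0.0481 at most.

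Etfb, on chromosome 7 at 43444083 to 43457800, plus strand, hands the electrons of the dehydrogenases on toward the respiratory chain. It read 325, 369, 359.5 and 363 CPM in control TAC hearts and 175, 166, 172 and 279 CPM in METTL5-cKO hearts. Of the 4, 3 METTL5-cKO libraries were close together near the lower end, and library 4 stood between them and the controls. The log2 fold change was -0.84 ± 0.16 (SE; edgeR adjusted p = 0.0155). Its partners did not pass, with -0.40 ± 0.12 for Etfa (edgeR adjusted p = 0.0523) and -0.44 ± 0.17 for Etfdh, the oxidoreductase that passes the electrons to ubiquinone (edgeR adjusted p = 0.105).

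Cpt2, the inner membrane carnitine palmitoyltransferase that re-forms acyl-CoA in the matrix, lies on chromosome 4 at 107903981 to 107923610, minus strand. It read 143, 122, 101 and 127 CPM in control TAC hearts and 66.1, 82.6, 71.5 and 91.0 CPM in METTL5-cKO hearts. The groups did not overlap, and the log2 fold change was -0.66 ± 0.13 (SE; edgeR adjusted p = 0.0159). Cpt1b fell less, by 0.37 on the log2 scale (SE 0.11; edgeR adjusted p = 0.0482), from 404 ± 27.0 to 312 ± 41.9 CPM. This call of Cpt1b stood in 1 of the 8 fits that left out a library, the one without METTL5-cKO library 4, and was lost with scaling by library size alone (log2 fold change -0.23, edgeR adjusted p = 0.157). Crat, which moves acetyl groups onto carnitine, had -0.47 ± 0.14 and did not pass (edgeR adjusted p = 0.0531), and Cpt1a had -0.01 ± 0.12.

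Acot2, a mitochondrial thioesterase on chromosome 12 at 83987861 to 83993873, plus strand, read 30.6, 34.4, 29.2 and 34.3 CPM in control TAC hearts and 15.6, 19.7, 22.3 and 24.1 CPM in METTL5-cKO hearts. No library crossed between the groups, and the log2 fold change was -0.66 ± 0.13 (SE; edgeR adjusted p = 0.0171). Its neighbour Acot1 had -0.81 ± 0.20 (edgeR adjusted p = 0.0327), from 6.01 ± 1.23 to 3.42 ± 0.81 CPM. Acot13 had -0.12 ± 0.09 and did not pass (edgeR adjusted p = 0.401).

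Acadvl, on chromosome 11 at 70010183 to 70015411, minus strand, read 560.1, 549.8, 454 and 563 CPM in control TAC hearts and 303, 353, 342 and 432 CPM in METTL5-cKO hearts. Control library 3 was the low one of its group and METTL5-cKO library 4 the high one, and they still did not cross. The log2 fold change was -0.57 ± 0.12 (SE; edgeR adjusted p = 0.0194). The dehydrogenases for shorter chains had fold changes below 0 and did not pass, with -0.26 ± 0.08 for Acadl, -0.40 ± 0.16 for Acadm and -0.37 ± 0.12 for Acads.

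In the later steps, Acaa2, the thiolase that cleaves off acetyl-CoA, had the widest fold change of all members, -0.94 ± 0.22 (SE; edgeR adjusted p = 0.0278), from 361 ± 29.2 to 188 ± 67.7 CPM. Hadh, the dehydrogenase for medium and short chains, fell by 0.71 on the log2 scale (SE 0.15; edgeR adjusted p = 0.0206) and the peroxisomal thiolase Acaa1a by 0.37 (SE 0.08; edgeR adjusted p = 0.0225). Hadha and Hadhb, which share the 85-base stretch shown above, had -0.44 ± 0.13 and -0.36 ± 0.13, and neither passed (edgeR adjusted p = 0.057 and 0.107). Eci1, which shifts double bonds, fell by 0.68 (SE 0.18; edgeR adjusted p = 0.0378), and its relative Eci2 had -0.37 ± 0.12 (edgeR adjusted p = 0.0744).

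Slc27a1, the fatty acid transport protein FATP1, fell by 0.71 on the log2 scale after TAC (SE 0.15; edgeR adjusted p = 0.0213), from 87.5 ± 5.03 to 53.6 ± 12.6 CPM. Fabp4, a binding protein known from endothelial cells and adipocytes, fell by 0.54 (SE 0.13; edgeR adjusted p = 0.0317), from 653 ± 51.1 to 448 ± 87.4 CPM. Of the 6 endothelial markers 4 were lower, and their summed CPM was 641 to 767 in controls and 434 to 577 in METTL5-cKO hearts. Adipocyte markers summed to at most 0.175 CPM in any TAC library, with Lep, Plin1 and Retn at 0 in all 8. The cell source of the fall of Fabp4 was not tested. Fabp3, the most abundant member per length, had -0.15 ± 0.09 (edgeR adjusted p = 0.297), Lpl -0.31 ± 0.10 (edgeR adjusted p = 0.0744) and Cd36 -0.37 ± 0.13 (edgeR adjusted p = 0.0798).

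**Figure D3:**
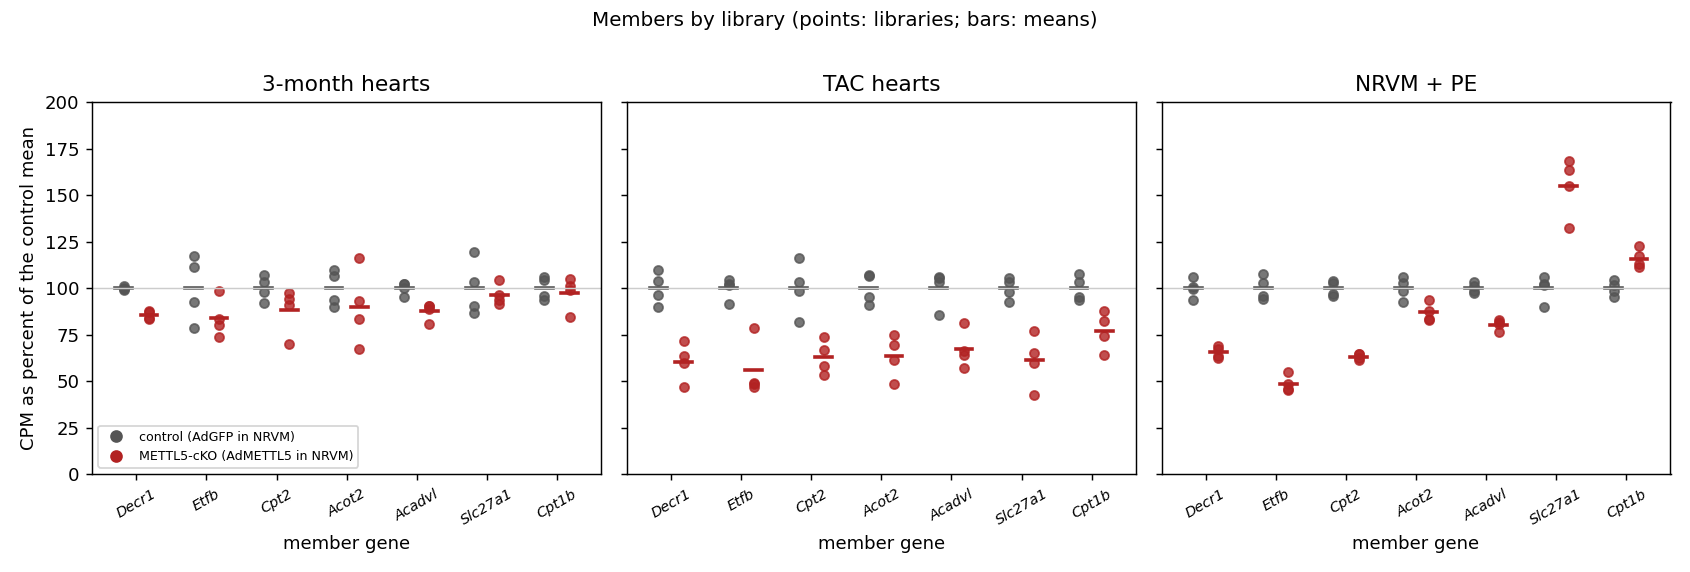
CPM of the 5 genes whose adjusted p was smallest after TAC, and of Slc27a1 and Cpt1b, in every library as percent of the control mean, with bars at group means. The left plot shows 3-month hearts, the middle one TAC hearts and the right one NRVMs. After TAC all 7 genes lie below their controls, while in NRVMs the first 5 are lower, Acot2 with 1 library inside the AdGFP range, and Slc27a1 and Cpt1b are higher.

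Markers of the heart's cell types moved with the TAC groups. The 8 cardiomyocyte markers summed to 40482 to 45653 CPM in controls and 29997 to 39283 in METTL5-cKO hearts, a ratio of 0.767 beside 0.772 for the members, and 2 of them were lower (Tnni3 and Mb). These sums rest mostly on the most abundant genes. By gene, the median log2 fold change was -0.30 for the markers and -0.39 for the members. The 7 fibroblast markers summed to 470 to 575 CPM in controls and 695 to 2084 in METTL5-cKO hearts, with 5 higher. The 6 macrophage markers, with 2 higher, summed to 136 to 185 CPM and 179 to 250.3 CPM, and the 5 smooth muscle markers, with 1 lower, to 182 to 210.1 CPM and 147 to 209 CPM. The part of cell composition in the fall of the members was not tested.

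The count of 13 depended on single libraries. Without control library 1, 2, 3 or 4 in turn, 8, 3, 10 and 1 members were lower, and without METTL5-cKO library 1, 2, 3 or 4, 8, 2, 6 and 26 were. The calls over all genes moved too, from 1.13% lower without control library 4 to 11.6% lower without METTL5-cKO library 4. In each of these fits all 13 genes kept a fold change below 0, and the median of the members ran from -0.49 to -0.31. The call stood in 1 of the 8 fits for Fabp4, Cpt1b and Eci1, in 2 for Acaa2 and in 3 for Acaa1a and Acot1. It stood in 4 for Slc27a1, Acadvl and Hadh, 5 for Acot2, 6 for Etfb, 7 for Cpt2 and 8 for Decr1. Scaled by library size alone, Acaa1a and Acot1 were lost as Cpt1b was (edgeR adjusted p = 0.072 and 0.0553).

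Of 26 other genes of the pathway, 25 were tested after TAC, with a median log2 fold change of -0.24. By edgeR 4 were lower and 0 higher, where 6.1% of all genes were lower and 6.57% higher. Ech1, a dienoyl-CoA isomerase, fell by 1.14 (SE 0.22; edgeR adjusted p = 0.0148), Lipe, hormone-sensitive lipase, by 0.56 (SE 0.15; edgeR adjusted p = 0.0406), Acot7 by 0.53 (SE 0.13; edgeR adjusted p = 0.0307) and Dbi, the acyl-CoA binding protein, by 0.27 (SE 0.07; edgeR adjusted p = 0.0319). At 1 month and at 3 months, edgeR called 0 of the 25 in either direction.

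**Figure D4:**
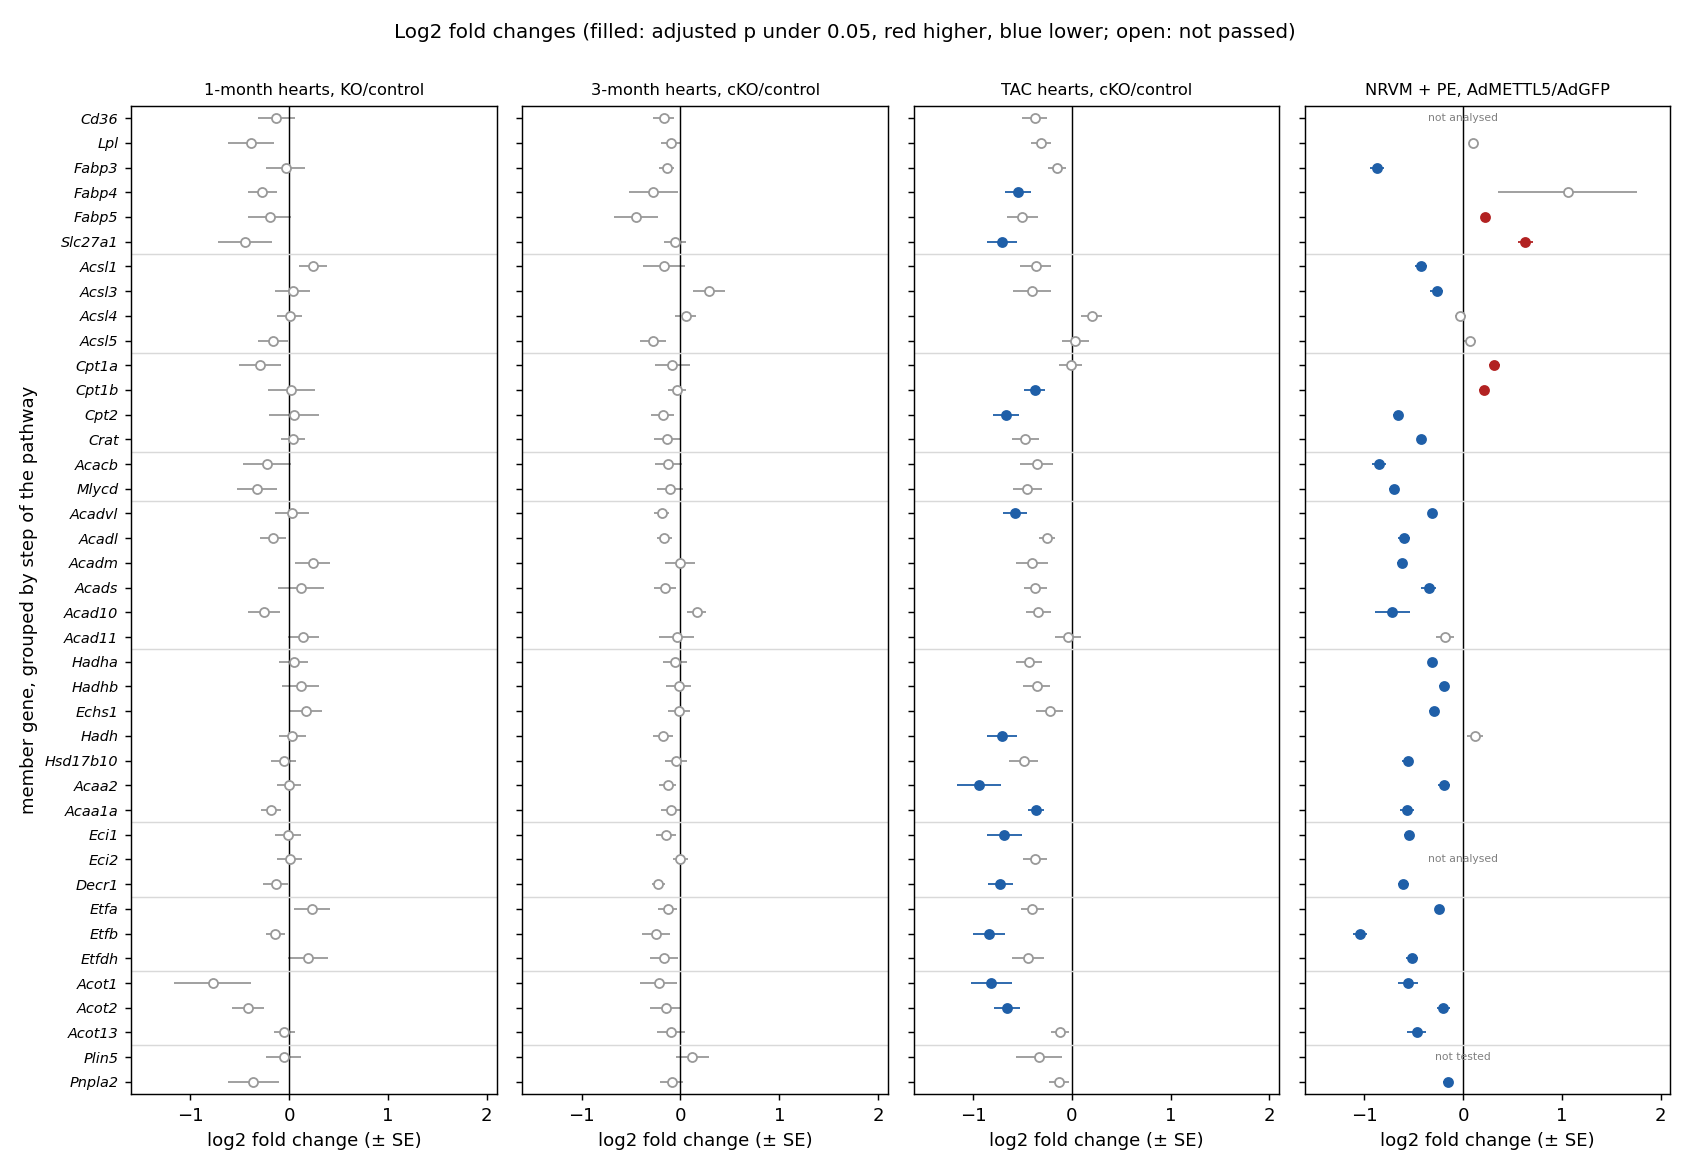
Log2 fold change and SE of each member in the 4 comparisons, grouped by step from uptake at the top to lipid droplet at the bottom. Filled points passed an adjusted p under 0.05, blue for lower and red for higher. No point is filled at 1 or 3 months, 13 are blue after TAC, and 27 are blue and 4 red in NRVMs.

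Whether the genotype acted differently after TAC than in 3-month hearts without surgery was tested as the difference between both effects in 1 fit of the 16 libraries. The TAC and 3-month libraries are separate sets and may be separate batches. Such a batch effect cancels here only if it acts alike on both genotypes, which was not tested. By edgeR, 0 of 40 members passed in the higher direction and 0 in the lower, where 0.00586% of the 17070 genes passed in the higher direction and 0% in the lower. At an unadjusted p under 0.05, 0 members were higher and 14 lower, where 6.61% of all genes were higher and 5.17% lower. DESeq2 called 0 members higher and 1 lower (Decr1), and 0.875% of all genes higher and 0.365% lower. The differences were below 0 in 35 members, with a median of -0.32 beside 0.0034 over all genes. Decr1 had the smallest p, with a difference of -0.49 ± 0.14 (SE; edgeR adjusted p = 0.187, DESeq2 adjusted p = 0.04999). For the 13 members lower after TAC, the difference from the 3-month effect thus ran from -0.79 for Acaa2 to -0.25 for Acaa1a without passing. Without METTL5-cKO TAC library 4, 8 members passed as lower, where 1.77% of all genes did so and 2.14% passed as higher.

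In NRVMs under PE, most members were lower with AdMETTL5. Of the 37 tested, 27 were lower and 4 higher than with AdGFP, where 25.7% of all 15041 genes tested were lower and 27.1% higher. Plin5 did not pass the filter on low counts, at under 1 CPM. With the added absolute log2 fold change over 1, 1 member was lower (Etfb) and 0 higher, where 1.8% of all genes were lower and 4.05% higher. The median log2 fold change (AdMETTL5 over AdGFP) was -0.31 beside -0.0022 over all genes. In 26 members every AdMETTL5 library was below every AdGFP library, and in 4 every one was above, where this held for 23.1% and 25.2% of all genes. Scaled by library size alone, 21 members were lower and 7 higher, where 15.6% of all genes were lower and 39% higher.

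Etfb fell most. AdGFP libraries read 97.1, 92.8, 85.0 and 86.7 CPM and AdMETTL5 libraries 43.8, 49.5, 41.0 and 41.3 CPM. Each AdMETTL5 library was far below the lowest AdGFP library, and the log2 fold change was -1.04 ± 0.07 (SE; edgeR adjusted p = 1.93e-07). The other subunit, Etfa, fell by 0.24 (SE 0.04) and Etfdh by 0.52 (SE 0.06), so all 3 genes of the electron transfer step were lower.

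Cpt2 read 57.5, 56.9, 61.7 and 61.1 CPM with AdGFP and 38.3, 38.4, 36.4 and 37.0 CPM with AdMETTL5. The groups were tight and apart, with a log2 fold change of -0.66 ± 0.05 (SE; edgeR adjusted p = 5.56e-07). Both genes of malonyl-CoA turnover were lower. Mlycd, malonyl-CoA decarboxylase, read 76.1, 71.6, 71.1 and 73.8 CPM against 44.9, 45.8, 41.2 and 48.2 (log2 fold change -0.70 ± 0.05, edgeR adjusted p = 7.75e-07), and Acacb, which makes malonyl-CoA, fell by 0.86 (SE 0.07; edgeR adjusted p = 1.45e-06). The enzyme that makes the inhibitor of the shuttle and the one that removes it thus fell together.

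Fabp3 read 547, 523, 469.8 and 465 CPM with AdGFP and 291, 293, 256 and 254 CPM with AdMETTL5. Every AdMETTL5 library was below every AdGFP library, with a log2 fold change of -0.87 ± 0.07 (SE; edgeR adjusted p = 9.35e-07). Acadm, medium-chain acyl-CoA dehydrogenase, read 185, 182, 169 and 161 CPM against 113, 117, 114 and 112 CPM (log2 fold change -0.61 ± 0.05, edgeR adjusted p = 1.30e-06), again without overlap. Of the 6 dehydrogenases 5 were lower, from -0.71 ± 0.18 for Acad10 to -0.31 ± 0.04 for Acadvl, and Acad11 did not pass. In the later steps 6 of 7 were lower, from -0.57 for Acaa1a to -0.19 for Hadhb and Acaa2, and Hadh, at 0.12 ± 0.08, did not pass. Decr1 and Eci1 fell by 0.61 and 0.55, and all 3 thioesterases were lower.

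The 4 members that rose were Slc27a1 and Fabp5 in uptake and binding, where Fabp3 was lower, and Cpt1a and Cpt1b in the carnitine shuttle, where Cpt2 and Crat were lower. Slc27a1 read 44.2, 38.9, 44.0 and 45.8 CPM with AdGFP and 72.8, 66.9, 70.6 and 57.2 CPM with AdMETTL5 (log2 fold change 0.63 ± 0.08, edgeR adjusted p = 3.15e-05). Cpt1a read 87.5, 94.0, 106 and 101 CPM against 123, 120.1, 122 and 118 CPM (0.32 ± 0.06, edgeR adjusted p = 0.000551). Cpt1b read 145, 139, 153 and 149 CPM against 172, 179.7, 165 and 163 CPM (0.21 ± 0.05, edgeR adjusted p = 0.00237). Fabp5, the epidermal-type binding protein, read 53.6, 51.9, 58.2 and 52.4 CPM against 63.4, 62.7, 61.5 and 65.3 CPM (0.23 ± 0.05, edgeR adjusted p = 0.00234). In all 4 genes the lowest AdMETTL5 library was above the highest AdGFP library. Lpl, at 0.10 ± 0.05, Acsl4, at -0.03 ± 0.05, Acsl5, at 0.07 ± 0.06, and Fabp4, at 1.06 ± 0.70 and under 1 CPM on average, did not pass.

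Here too a cell type marker list moved with the groups. All 8 cardiomyocyte markers were lower with AdMETTL5, from -0.90 for Tnnt2 to -1.74 for Mb, and their summed CPM was 29756 to 37685 with AdGFP and 13046 to 14533 with AdMETTL5, a ratio of 0.40 beside 0.794 for the members. Of the 7 fibroblast markers 6 were lower (9444 to 9932 CPM against 7570 to 8337 CPM in sum). The 5 endothelial markers in the table summed to 27.0 to 29.3 CPM and 39.0 to 46.6 CPM, with 1 higher, the 6 macrophage markers to 61.1 to 72.0 CPM and 48.5 to 59.4 CPM, with 2 lower, and the 5 smooth muscle markers to 2741 to 3453 CPM and 3259 to 3754 CPM, with 2 higher and 1 lower. Adipocyte markers summed to at most 0.698 CPM. The part of cell composition in the changes of the members was not tested.

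Of the other pathway genes in NRVMs, 22 were tested, and 7 were lower and 6 higher, counts near the 25.7% and 27.1% of all genes. G0s2, an inhibitor of the lipase encoded by Pnpla2, fell by 1.83 (SE 0.09; edgeR adjusted p = 3.92e-08), and Hsd17b4, the peroxisomal bifunctional enzyme, by 0.56 (SE 0.04; edgeR adjusted p = 7.06e-07). Ech1 fell by 0.57 (SE 0.07; edgeR adjusted p = 4.4e-05). Dgat2, which makes triglyceride, rose by 1.13 (SE 0.07; edgeR adjusted p = 8.48e-08) and Plin4, a lipid droplet protein, by 1.03 (SE 0.13; edgeR adjusted p = 4.21e-05).

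The TAC hearts and the NRVMs share no samples, and in one METTL5 was removed while in the other it was added. Of the 13 members lower after TAC, 9 were also lower with AdMETTL5: Cpt2, Acadvl, Acaa2, Acaa1a, Eci1, Decr1, Etfb, Acot1 and Acot2. They are 69.2% of the members lower after TAC and 33.3% of those lower in NRVMs, while 73% of all 37 members tested in NRVMs were lower there, so the overlap is near what the NRVM calls alone give. Scaled by library size alone, 5 of the 9 passed as lower in both (Cpt2, Acadvl, Eci1, Decr1 and Etfb), and the count lower after TAC itself ranged from 1 to 26 when 1 library was left out. The transporter Slc27a1 and the shuttle enzyme Cpt1b were lower after TAC and higher with AdMETTL5, with the limits on the TAC call of Cpt1b given above. Fabp4 and Hadh passed after TAC only, 18 members were lower in NRVMs only and Fabp5 and Cpt1a higher in NRVMs only, where the difference between the 2 systems was not tested.

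**Figure D5:**
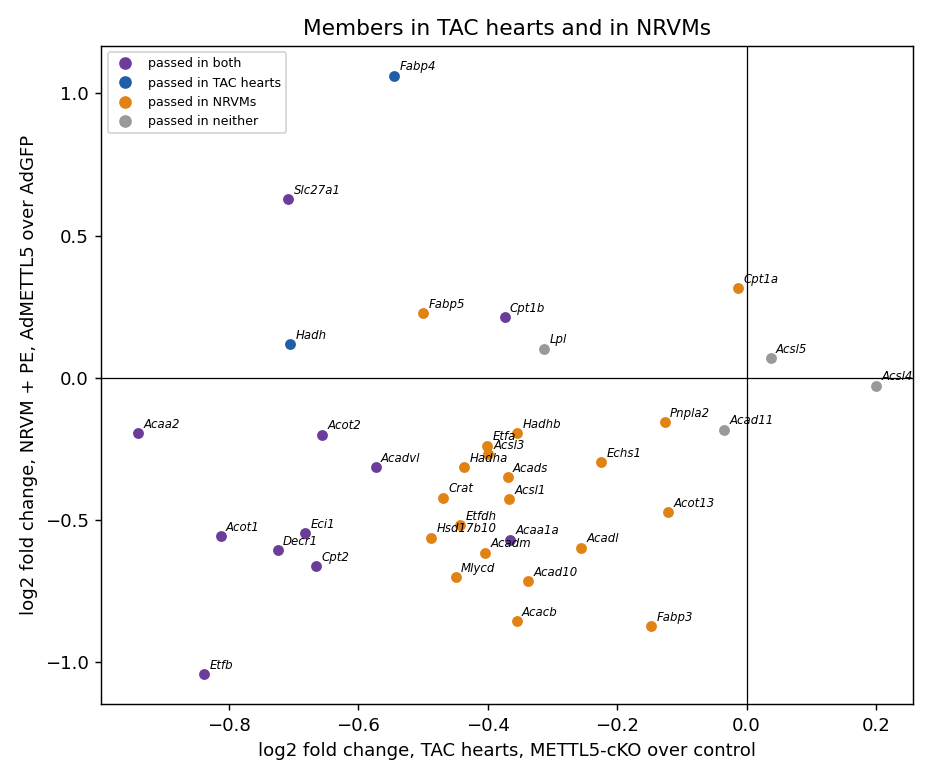
Log2 fold change of 37 members in TAC hearts (horizontal) and in NRVMs (vertical), coloured by where they passed. The 9 members lower in both lie at the lower left, with Etfb lowest at -0.84 and -1.04, and Slc27a1 and Cpt1b lie at the upper left.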

How the data were processed

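RNA-seq was done on 4 libraries in each of 8 groups. The authors aligned reads with HISAT2 and deposited estimated counts per gene from StringTie 2.1.4, already whole numbers, on GRCm38 or Rnor_6.0, per the labels, methods and the submitters' processing notes. Each of the 4 tables was tested by itself, since each was made from its own libraries. The members and gene lists were chosen with earlier results of these data known. Genes were kept by edgeR's filter on low counts (minimum 10), scaled by TMM and tested by quasi-likelihood (edgeR 4.0.16, R 4.3.3), with Benjamini-Hochberg adjustment over all genes tested and a threshold of 0.05. DESeq2 1.42.0, other scalings and filters, and fits without each library were alternatives. Level per library is CPM on TMM-scaled totals. The effect of genotype after TAC was set against that at 3 months in 1 fit. The scripts were tested on simulated data. Totals of 14324700 to 21804907 counts a library set the precision, and the study describes mice and littermates, but the labels do not tie each library to its own animal or culture, so p-values measure the spread between libraries, which may be technical. Replicates differed by more than counting noise, with a chi-square per degree of freedom of at least 2.16. All 40 members may be named. Values by library are given for the 5 members per direction with the smallest adjusted p in a comparison among those that passed, for those also past an absolute log2 fold change of 1, and at 3 months for each step's most counted gene. Replicate numbers of the 1-month libraries did not pair them. The deposited tables hold no other per-sample columns.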

Additional observations from a re-analysis of the deposited data

Results flagged for a closer look

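Values by library were examined in 56 groups of 4 for a sample far from the others, by the ratio of its gap to the nearest sample over the range of the group, against Dixon's critical value for 4 samples. Chance alone would flag about 1 in 20 groups, and 2 were flagged. Etfb in TAC hearts labelled METTL5-cKO had a ratio of 0.925, since library 4 read 279 CPM and the others 175, 166 and 172. Acadvl in control TAC hearts had a ratio of 0.882, since library 3 read 454 CPM and the others 560.1, 549.8 and 563.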

How the results depend on the processing

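At 1 month and 3 months no member passed under any scaling or filter tried with edgeR. Taking an unadjusted p under 0.05 instead gave 1 lower member at 1 month, 2 lower at 3 months, 29 lower after TAC and 14 lower in the difference between TAC and 3 months. DESeq2 called 1 lower at 3 months, 24 after TAC and 1 in that difference. With an absolute log2 fold change over 1 as well, 0 were lower after TAC, and 1 was lower and 0 higher in NRVMs. Without the filter on low counts 7 were lower after TAC, where 1.37% of all genes were lower and 2.13% higher. Leaving out 1 library gave 1 to 26 lower after TAC and 0 to 8 lower in the difference. In NRVMs it gave 25 to 27 lower and 4 to 5 higher. Scaling by library size alone gave medians of -0.25 after TAC and -0.18 in NRVMs, where 7 members were higher and 21 lower, while it moved the median of all genes to 0.14 and 0.13. Over all genes it moved the calls after TAC from 1074 higher and 997 lower to 2060 and 524, and in NRVMs from 4082 and 3867 to 5872 and 2343. Leaving out 1 library turned the sign of 1 member in NRVMs, 3 in TAC hearts, 13 in 3-month hearts and 19 in 1-month hearts, none of which had passed. Among the genes given by library at 3 months, values turned for Cpt1b to 0.0154 with library size alone and to 0.0228 without METTL5-cKO library 4, Acot13 to 0.0103 without control library 2, and Hadha to 0.0280 without METTL5-cKO library 4. Their lowest values without 1 library were -0.0781, -0.193 and -0.133. The causes were not tested. All 13 members called after TAC and all 31 in NRVMs kept their sign without any one library. At 1 month, libraries with the same replicate number correlated by 0.24, 0.12, -0.11 and 0.08 in their deviations, while the highest correlations with another number were 0.17, 0.19, 0.12 and 0.08, so the numbers were not taken to pair them. A fit with the replicate block called 0 members higher and 0 lower, with a median of -0.04. No paired analysis was possible in the other tables because the columns carry no replicate numbers shared by both groups. The spread between libraries limits the TAC counts, and gene-level counts do not resolve the deleted exons of Mettl5 or exons that members share with other genes.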
